A study of Sus scrofa with 36 samples.

Results

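ENO1, GPI, PFKL and PFKFB4 were examined as the glycolysis genes of the postnatal pig heart. They are the 4 genes whose symbols were looked up in the gene table of the total RNA libraries, out of 9815 genes in that table, of which 5526 had enough reads to be tested. All 4 were found once, and all 4 passed the minimum of 10 counts in at least 3 libraries. The hearts came from domestic Yorkshire pigs, fed normally and otherwise untreated, taken on day 1 after birth (P1) and at 3 later ages, on day 3 (P3), day 7 (P7) or day 28 (P28). Each age had 3 libraries of rRNA-depleted total RNA from whole heart tissue, sequenced by CD Genomics in a single batch (cd), each from a different pig. The study used hearts of both sexes, and the sex behind each library is not given in the labels. The question put to these libraries is how transcripts change between P1 and the later ages, over the window in which the neonatal heart stops renewing its muscle cells.

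Glycolysis splits glucose into pyruvate in the cytosol and yields ATP without oxygen. Before birth the heart draws largely on glucose and lactate, and after birth it turns to fatty acids burned in mitochondria. Several steps of glycolysis can be carried by more than one gene, and striated muscle has its own forms of phosphofructokinase and enolase, PFKM and ENO3, which were not analysed here. GPI (glucose phosphate isomerase) turns glucose phosphate into fructose phosphate. PFKL, the liver-type subunit of phosphofructokinase, adds a further phosphate in the step that commits the sugar to glycolysis. PFKFB4 is a bifunctional enzyme that makes and breaks down the sugar bisphosphate that activates phosphofructokinase. ENO1 (alpha-enolase), the most widely expressed enolase, acts near the end of the pathway and makes phosphoenolpyruvate.

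From P1 to P28, 2 of the 4 genes fell and 2 stayed within the spread between pigs. Both falls had an adjusted p under 0.05 (edgeR), as did 15.3% of all tested genes in either direction and 7.93% as lower. ENO1 was 2.701-fold lower and PFKL 2.15-fold lower at P28 than at P1, whereas GPI and PFKFB4 differed by -0.04 and 0.01 on the log2 scale. The mean level of ENO1 was lower at each later age, and the mean of PFKL was close to that of P1 at P3 and lower at P7 and P28. Whether the courses of these 2 genes differed was not tested, and neither gene passed from P1 to P3. In whole tissue, fewer cells of a type and less RNA per cell cannot be told apart.

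Levels are given in CPM, the counts of a gene per 1000000 counts of its library, after scaling by the trimmed mean of M values (TMM). Total counts per library ranged from 8887176 to 14883849. The 4 genes had between 716 counts (PFKFB4 in library 4 of P7) and 16750 counts (GPI in library 4 of P1), and counting error alone gave a coefficient of variation (SD over mean) of 0.842% to 1.85% for ENO1, GPI and PFKL and of 3.17% to 3.6% for PFKFB4. For PFKFB4 at P7 it was 3.6%, beside a whole spread of 6.03% between libraries. Genes named Metazoa_SRP, copies of the RNA of the signal recognition particle, took 7.09% to 19.7% of the counts. Library 4 of P1 had 19.5% and the lowest TMM factor, 0.900. Library 5 of P3 stood somewhat apart, with a mean correlation of 0.968 to the other libraries of its age, against 0.973 to 0.988 for the rest. The tests of fold changes were repeated without each library in turn. Of 17 cardiomyocyte marker genes 7 were measured, and their summed level was 62859 to 89441 CPM in the 12 libraries. The 2 measured adipocyte markers together reached at most 1.64 CPM.

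ENO1 (ENSSSCG00000022343) lies on chromosome 6, from 69385882 to 69401117. Its level was 1047, 557 and 663 CPM in libraries 4, 5 and 6 of P1, and 309, 381 and 601 CPM in those of P3. At P7 it was 325, 358 and 346 CPM, and at P28 it was 279, 302 and 258 CPM. All 3 P1 libraries lay above all P7 and P28 libraries, whereas P1 and P3 overlapped, because library 6 of P3 was above library 5 of P1. The means were 756 ± 258 CPM at P1, 430 ± 152 at P3, 343 ± 16.6 at P7 and 280 ± 22.0 at P28 (SD, n = 3 each). Between P1 and P28 the log2 fold change was -1.43 with a standard error of 0.25, and the adjusted p was 0.00291 by edgeR's quasi-likelihood test with Benjamini-Hochberg adjustment over all genes tested. Between P1 and P7 it was -1.14 ± 0.25 (SE), with an adjusted p of 0.0396 in the same edgeR test.

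The difference in ENO1 between P1 and P3 did not pass the test. Its log2 fold change was -0.81, with a 95% interval of -1.35 to -0.28 and an adjusted p of 0.196 (edgeR). It was -0.49 without library 4 of P1 and -1.114 without library 6 of P3, and it passed in neither case. Between P3 and P7 the log2 fold change was -0.33, and -0.024 without library 6 of P3. No pair of neighbouring ages differed past the threshold, with an adjusted p of 0.493 for P3 against P7 and 0.444 for P7 against P28 (edgeR). The ages P7 and P28 did not overlap in ENO1, with the lowest P7 library above the highest P28 library, and a fit of these 2 ages alone gave a log2 fold change of -0.31 with an adjusted p of 0.0277 (edgeR). Library 4 of P1 carried the highest level of ENO1 by far. Without it the log2 fold change to P28 was -1.13 with an adjusted p of 0.00740, and that to P7 was -0.83 with an adjusted p of 0.122 (edgeR), so the fall to P7 was called with that library and not without it. The call at P7 was also lost without library 6 of P1, without any 1 of the P7 libraries and without library 5 or 6 of P28, with adjusted p-values of up to 0.146 (edgeR). Against the mean of P3, P7 and P28, the change of ENO1 from P1 was -1.13 on the log2 scale with an adjusted p of 0.00907, and without library 4 of P1 it was -0.82 with an adjusted p of 0.0546 (edgeR).

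PFKL (ENSSSCG00000028197) lies on chromosome 13, from 207167372 to 207191690. Its level was 739, 375 and 517 CPM in libraries 4, 5 and 6 of P1 and 367, 656 and 531 CPM in those of P3. At P7 it was 295, 282 and 240 CPM, and at P28 it was 242, 241 and 274 CPM. Every library of P1 and P3 lay above every library of P7 and P28, while P1 and P3 overlapped with each other, and so did P7 and P28. The means were 544 ± 184 CPM at P1, 518 ± 145 at P3, 272 ± 29.1 at P7 and 253 ± 18.98 at P28 (SD, n = 3 each). In edgeR's quasi-likelihood test PFKL fell from P1 to P28 by 1.106 on the log2 scale (SE 0.24, adjusted p = 0.00908). From P3 to P28 it fell by 1.04 (SE 0.24, adjusted p = 0.0119).

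The step of PFKL between P3 and P7 was close to the threshold of 0.05 without passing it. Its log2 fold change was -0.93 from P3 to P7 (95% interval -1.44 to -0.41, adjusted p = 0.0652) and -0.998 from P1 to P7 (-1.51 to -0.48, adjusted p = 0.0517), both by edgeR. DESeq2's Wald test on the same counts called both, with adjusted p-values of 0.00965 and 0.00398. Between P1 and P3 the change of PFKL was -0.07 (95% interval -0.58 to 0.44), and between P7 and P28 it was -0.11 (-0.62 to 0.40). These intervals leave room for differences of up to about 0.6 in either comparison, so equal levels are not shown. As for ENO1, library 4 of P1 was the highest of all 12. Without it the change of PFKL from P1 to P28 was -0.82 with an adjusted p of 0.0331 (edgeR). Library 5 of P3 was the highest at its age, and without it the change from P3 to P28 was -0.83 with an adjusted p of 0.0348 (edgeR).

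GPI (ENSSSCG00000002873) lies on chromosome 6, from 43933759 to 44069330. Its level was 1250, 991 and 1027 CPM in the libraries of P1, 877, 1227 and 1111 CPM at P3, 1073, 1107 and 966 CPM at P7, and 1038, 1049 and 1101 CPM at P28. The 4 ages overlapped in every pair. Their means were 1090 ± 140, 1072 ± 178, 1048 ± 73.6 and 1063 ± 33.97 CPM (SD, n = 3 each). Over the 6 pairs of ages the log2 fold changes of GPI lay between -0.06 and 0.02, with adjusted p-values of 0.887 or more (edgeR). The 95% interval from P1 to P28 was -0.34 to 0.27, which leaves out a change of the size that ENO1 or PFKL showed. The annotated span of GPI shares 96871 bases with that of GARRE1, and the sources used here do not give how the counting treated strand or such overlaps, so some reads may be shared. GARRE1 stood at 165 to 282 CPM in the 12 libraries, below GPI in each.

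PFKFB4 (ENSSSCG00000011353) lies on chromosome 13, from 31212550 to 31259749. Its level was 61.1, 71.8 and 86.6 CPM in libraries 4, 5 and 6 of P1 and 89.7, 147 and 66.3 CPM in those of P3. At P7 it was 64.3, 57.1 and 61.9 CPM, and at P28 it was 66.2, 71.5 and 83.2 CPM. The highest value, in library 5 of P3, stood far above the rest, and the P7 libraries lay below all P3 and all P28 libraries. The means were 73.2 ± 12.8 CPM at P1, 101 ± 41.2 at P3, 61.1 ± 3.68 at P7 and 73.6 ± 8.68 at P28 (SD, n = 3 each). PFKFB4 passed the test in none of the 6 pairs of ages with edgeR, DESeq2 or limma voom, although 1 pair had an unadjusted p under 0.05. That pair was P3 and P7, with a log2 fold change of -0.72 (95% interval -1.24 to -0.21, unadjusted p = 0.00982, adjusted p = 0.134). Without library 5 of P3 the same change was -0.35 with an adjusted p of 0.337, and without library 6 of P3, the lowest at that age, it was -0.97 with an adjusted p of 0.0296 (edgeR). From P1 to P28 the change of PFKFB4 was 0.01, with a 95% interval of -0.50 to 0.52.

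**Figure D1:**
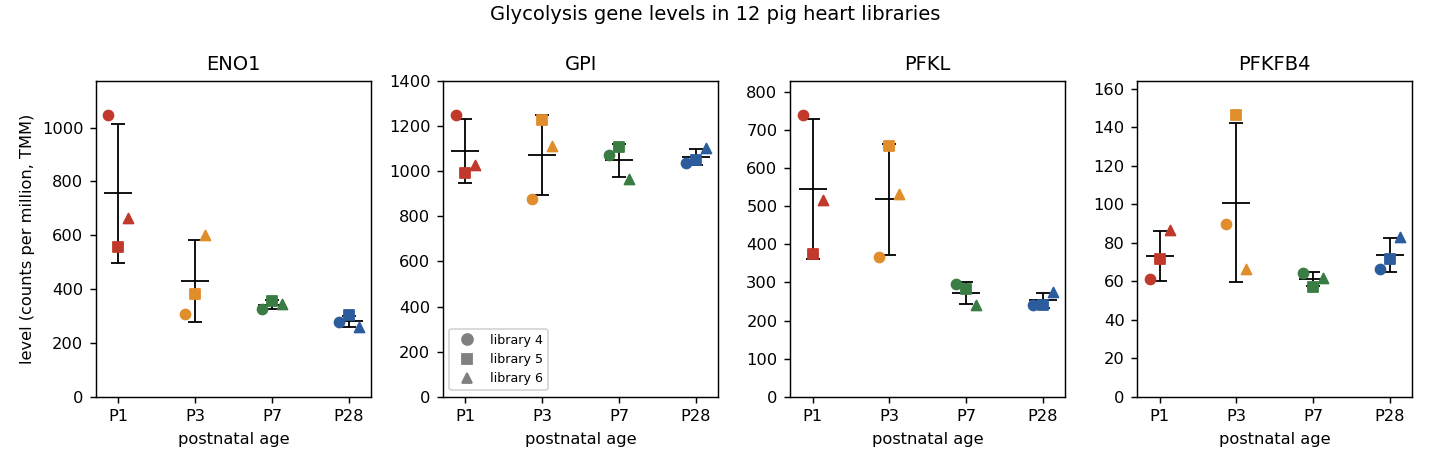
Levels of ENO1, GPI, PFKL and PFKFB4 in CPM (vertical axis, linear from 0, a separate scale for each gene) at P1, P3, P7 and P28. Each symbol is a library, with its shape giving the library number, and the horizontal line and bars are the mean ± SD of 3 libraries. ENO1 runs from a mean of 756 at P1 to 280 at P28, PFKL has means of 518 at P3 and 272 at P7 (a difference that did not pass), GPI has means of 1048 to 1090, and PFKFB4 has a single high library at P3.

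Read by comparison, the counts of genes called stood as follows, with the share of all tested genes called in the same edgeR test beside each. Between P1 and P3 none of the 4 genes passed, against 0.0543% of all genes. There 1 gene, ENO1, had an unadjusted p under 0.05, and neither DESeq2 nor limma voom called any. Between P1 and P7, 1 of 4 passed (ENO1, lower at P7), against 2.01% of all genes in either direction and 0.543% lower. Between P1 and P28, 2 of 4 passed (ENO1 and PFKL, both lower), against 15.3% in either direction and 7.93% lower. Between P3 and P28, 1 of 4 passed (PFKL, lower), against 16.5% and 8.51% lower. None of the 4 passed between P3 and P7, where 2.21% of all genes did. There 2 genes, PFKL and PFKFB4, had an unadjusted p under 0.05, DESeq2 called PFKL, and limma voom called none. None passed between P7 and P28 either, where 18.8% of all genes did, and there 0 genes had an unadjusted p under 0.05 and neither DESeq2 nor limma voom called any. For P1 against the mean of the later ages, 1 of 4 passed (ENO1, lower), against 2.46% of all genes and 1.52% lower. No gene of the 4 passed as higher at a later age in any of these comparisons. The counts by unadjusted p, DESeq2 or limma voom stand without a share of all genes, so no background is given for them.

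The position of the 2 falling genes among all genes differed between comparisons. From P1 to P7, the log2 fold change of ENO1 was at percentile 1.65 of all tested genes and that of PFKL at percentile 2.14, counted from the largest fall. From P1 to P28 they were at percentiles 4.02 and 6.26, and the median over all tested genes was 0.00. The groups of 3 libraries did not overlap in 2 of 4 genes (ENO1 and PFKL, lower later) both from P1 to P7 and from P1 to P28, where 15.2% and 21.9% of all genes were lower without overlap. From P3 to P7 and from P3 to P28, 2 of 4 genes were lower without overlap, against 10.7% and 16.4% of all genes. These were PFKL and PFKFB4 in the first case and ENO1 and PFKL in the second. From P7 to P28, ENO1 was lower and PFKFB4 higher without overlap, against 23.3% and 23.7% of all genes.

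The study's own cut-offs, which ask for an unadjusted p no larger than 0.05 and a log2 fold change beyond 0.5 in either direction, called more. They called 1 of 4 genes between P1 and P3 (ENO1), where they called 10.6% of all tested genes. They called 2 of 4 between P1 and P7 and between P1 and P28 (ENO1 and PFKL), against 11.7% and 23.1% of all genes. Between P3 and P7 they called PFKL and PFKFB4, against 13% of all genes, and between P3 and P28 they called ENO1 and PFKL, against 24%. Between P7 and P28 they called none of the 4, against 25.1% of all genes, and for P1 against the mean of the later ages they called ENO1 and PFKL, against 9.41%.

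**Figure D2:**
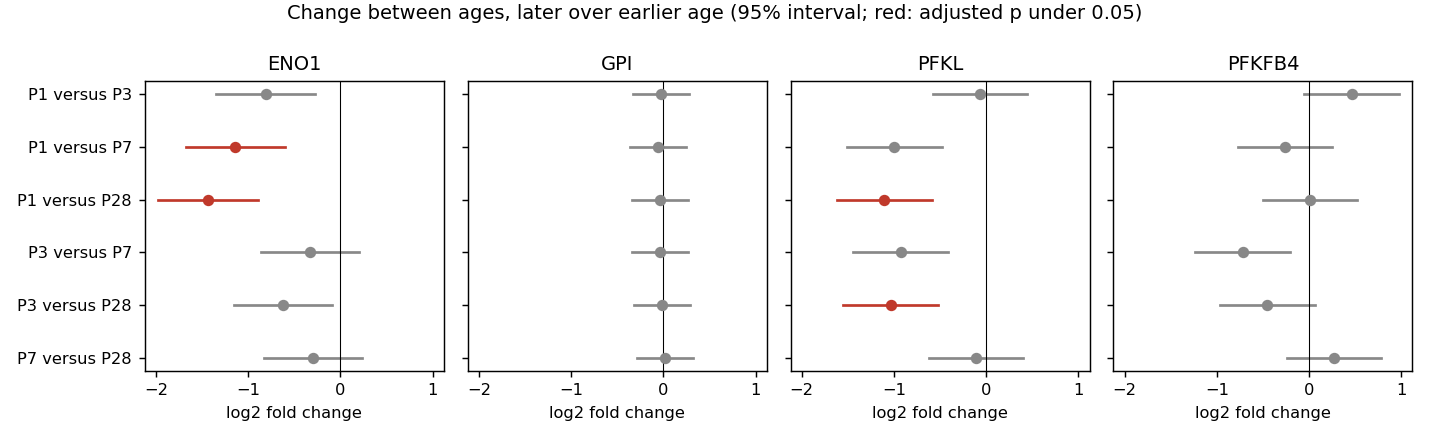
Log2 fold change of each of the 4 genes (horizontal axis, later over earlier age) for the 6 pairs of ages, with bars for the 95% interval of edgeR's quasi-likelihood fit. Points in red had an adjusted p under 0.05. ENO1 is red from P1 to P7 (-1.14) and from P1 to P28 (-1.43), PFKL is red from P1 to P28 (-1.106) and from P3 to P28 (-1.04), and the intervals of GPI all cross 0, as do those of PFKFB4 except from P3 to P7.

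Per kilobase of annotated length, the 4 genes can be set side by side. The value of GPI is less certain on this scale, since its annotated span of 135572 bases overlaps GARRE1, against 30958 bases in RefSeq's Sscrofa11.1 table, and the levels, ratios and shares rest on its deposited length of 5753 bases. At P1, ENO1 stood at 196 CPM per kilobase, GPI at 189, PFKL at 153 and PFKFB4 at 11.8. ENO1, GPI and PFKL overlapped between libraries at P1, and PFKFB4 lay below all of them. At P28, GPI stood at 185, ENO1 at 72.6, PFKL at 70.8 and PFKFB4 at 11.8. GPI was then above both in every library, and ENO1 and PFKL were level within their spread. Among the 4591 protein-coding genes tested, the level per kilobase of ENO1 was at percentile 96.4 at P1 and 89.2 at P28, and that of PFKL at 95.4 and 88.9. GPI was at percentiles 96.0 to 96.6 at the 4 ages, and PFKFB4 ranged from 43.1 at P7 to 55.5 at P3.

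Ratios to GPI, the enzyme upstream of phosphofructokinase, within each library give the other genes a scale that does not depend on library size. GPI was taken as the base because its mean varied little with age in these same libraries. Per kilobase, the ratio of ENO1 to GPI was 1.25, 0.839 and 0.963 in libraries 4, 5 and 6 of P1 and 0.402, 0.430 and 0.350 in those of P28. The lowest P1 ratio, 0.839, was close to the highest P3 ratio, 0.808, and in CPM the 2 ages overlapped. The ratio of PFKL to GPI was 0.954, 0.611 and 0.812 at P1 and 0.675, 0.864 and 0.771 at P3, and it was 0.371 to 0.445 in the 6 libraries of P7 and P28. The P3 ratios of PFKL lay within the range of the P1 ratios, and all were above those of P7 and P28. The ratio of PFKFB4 to GPI averaged 0.0634 ± 0.0167 at P1, 0.0868 ± 0.0284 at P3, 0.0542 ± 0.0059 at P7 and 0.0640 ± 0.0055 at P28 (SD, n = 3 each), and P1 and P28 overlapped.

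**Figure D3:**
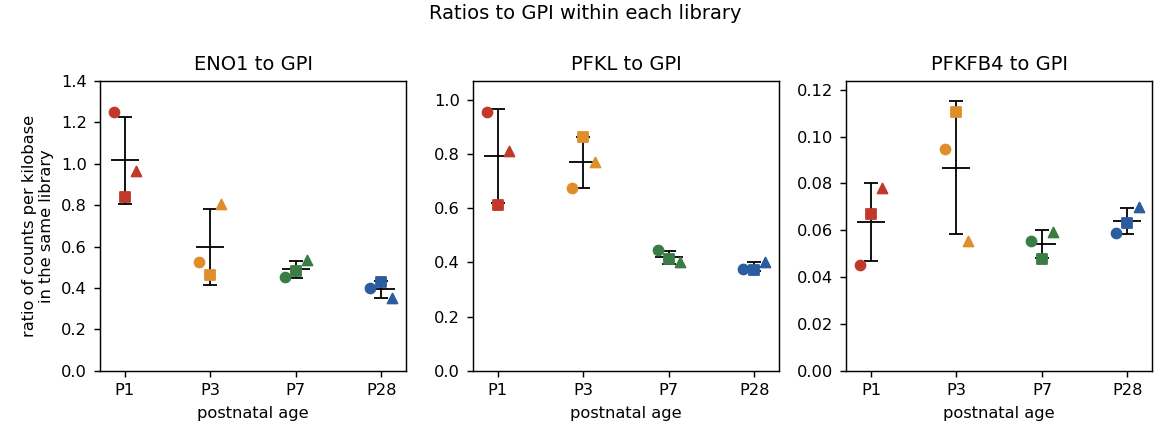
Ratio of ENO1, PFKL and PFKFB4 to GPI, each per kilobase of length, within each of the 12 libraries (vertical axis, linear from 0), with the mean ± SD of 3 libraries per age. Symbols give the library number as circles (4), squares (5) and triangles (6). The ENO1 ratio averages 1.02 at P1 and 0.394 at P28, the lowest P1 and highest P3 ratios of ENO1 lie close together at 0.839 and 0.808, and the PFKL ratio averages 0.770 at P3 and 0.419 at P7.

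Expressed as shares of the 4 genes' summed level per kilobase, GPI took 35.2% ± 4.48 at P1 and 54.3% ± 0.624 at P28 (SD, n = 3 each). The share of ENO1 went from 35.2% ± 2.85 to 21.4% ± 1.98 and that of PFKL from 27.4% ± 2.72 to 20.8% ± 1.122. PFKFB4 made up 2.26% ± 0.755 at P1 and 3.48% ± 0.322 at P28. The shares of each of the 4 genes did not overlap between P1 and P28, although GPI and PFKFB4 overlapped between these ages in CPM. These shares add to the whole within a library, so a fall in some genes raises the shares of the others.

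The spread between pigs of the same age was itself uneven. The coefficient of variation (SD over mean of 3 libraries) of ENO1 was 34.1% at P1 and 35.3% at P3, and 4.85% at P7 and 7.86% at P28. For PFKL it was 33.8% and 28.1% at P1 and P3, and 10.7% and 7.52% at P7 and P28. Over the 2433 genes with a mean of at least 50 CPM, the median coefficient was 8.10% at P1, 19.5% at P3, 7.14% at P7 and 8.26% at P28. At P1, ENO1 and PFKL were at percentiles 96.5 and 96.3 of these genes in spread, and at P7 and P28 they were nearer the middle. PFKFB4 was most variable at P3, with 40.9%, and GPI had its highest value there too, with 16.6%. The coefficients rest on 3 libraries each and were not tested. Single libraries set several of them, as values without library 4 of P1 or library 5 of P3, computed after the data were seen, show. Without library 4 of P1, the coefficient at P1 was 12.2% for ENO1, 22.4% for PFKL, 13.2% for PFKFB4 and 2.56% for GPI, beside a median of 4.35% over the same genes. Without library 5 of P3, the coefficient at P3 was 21.1% for PFKFB4 and 45.3% for ENO1, beside a median of 9.86%. These values rest on 2 libraries each.

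**Figure D4:**
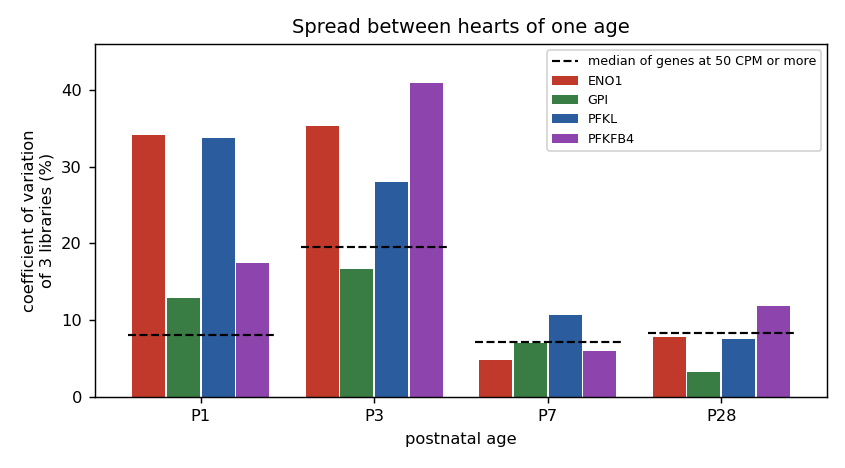
Coefficient of variation between the 3 libraries of an age (vertical axis, percent, from 0) for each of the 4 genes at P1, P3, P7 and P28. Dashed lines give the median over the 2433 genes with a mean of at least 50 CPM (8.10%, 19.5%, 7.14% and 8.26%). ENO1 and PFKL stand at 34.1% and 33.8% at P1 and at 7.86% and 7.52% at P28.

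Across the 12 libraries, ENO1 and PFKL had a Pearson correlation of 0.793 in log2 CPM (Spearman 0.776), and 0.648 once the mean of each age was taken out. GPI and PFKL had a correlation of 0.537 over the 12 libraries and of 0.941 within ages. ENO1 and GPI had 0.395 over all and 0.633 within ages. PFKFB4 had -0.135 with ENO1, 0.127 with GPI and 0.418 with PFKL over all, and -0.564, 0.137 and 0.171 within ages. Most of these values moved when 1 library was left out, as was computed after the data were seen. Without library 4 of P1, ENO1 and GPI had 0.0554 over all and 0.436 within ages, and ENO1 and PFKL had 0.688 and 0.395. PFKL and PFKFB4 then had 0.677 and 0.517, GPI and PFKFB4 0.308 and 0.394, and ENO1 and PFKFB4 0.0481 and -0.493. Without library 5 of P3, PFKFB4 had -0.518 with GPI over all and -0.647 within ages, 0.0855 and -0.450 with PFKL, and -0.155 and -0.770 with ENO1. ENO1 then had 0.920 and 0.837 with PFKL and 0.476 and 0.869 with GPI. GPI and PFKL had 0.353 over all and 0.918 within ages without library 4 of P1, and 0.415 and 0.922 without library 5 of P3. These are descriptions over libraries that share ages and library scaling.

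Genes whose log2 CPM ran most like each of the 4 over the 12 libraries were picked by Pearson correlation among all 5526 genes tested. For ENO1 the first 2 were genes of chromosome 2 with no symbol (0.926 and 0.915), and the next were ATP5F1A, a subunit of mitochondrial ATP synthase (0.903), WFDC1 (0.898) and UBE2M, an enzyme that transfers NEDD8 (0.894). For GPI they included PLCB3, a phospholipase C (0.927), the pacemaker channel HCN2 (0.886), MAP3K6 (0.879) and RRAS (0.871). For PFKL they were ACAD9, which takes part in the assembly of respiratory complex I (0.935), EBI3 (0.922), CTRC (0.914), IRF3 (0.914) and the RNA-binding protein IGF2BP2 (0.907). For PFKFB4 they were PLA2G4B (0.956), CDK10 (0.935), RPAP1 (0.929), MUS81 (0.921) and VPS51 (0.914). Without the 2 libraries farthest from the median of each gene, these values were between 0.819 and 0.932 for ENO1 (without libraries 4 and 6 of P1), 0.801 and 0.945 for GPI (without library 4 of P1 and of P3), 0.780 and 0.871 for PFKL (without library 4 of P1 and library 5 of P3) and 0.738 and 0.829 for PFKFB4 (without libraries 4 and 5 of P3). No gene of the 4 was among the 5 most like another.

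Of 124 other genes of glucose metabolism and oxygen sensing that were listed, 29 were measured and 28 tested. The rest, with many of the better known glycolytic genes, were not analysed here. Among them 3 of 28 passed from P1 to P28, 1 higher and 2 lower, against 15.3% of all genes, with a median log2 fold change of 0.03 beside 0.00 over all genes. PDP2, a phosphatase that switches on pyruvate dehydrogenase, rose from a mean of 26.3 to 40.9 CPM (log2 0.64, adjusted p = 0.0368, edgeR). ME1, the malic enzyme of the cytosol, which makes NADPH, fell from 21.0 to 6.40 CPM (log2 -1.71, adjusted p = 0.00158, edgeR). GYG1, the protein primer of glycogen, fell from 619 to 379 CPM (log2 -0.71, adjusted p = 0.0370, edgeR). None of the 28 passed with edgeR between P1 and P3, between P1 and P7, between P3 and P7, or for P1 against the mean of the later ages. In these comparisons 4, 6, 7 and 3 of the 28 had an unadjusted p under 0.05, DESeq2 called 0, 1, 3 and 1, and limma voom called 0 in each. No share of all genes is given for these rules, so the counts have no background here.

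From P7 to P28, where none of the 4 genes passed, 8 of the 28 other genes did, 5 higher and 3 lower, against 18.8% of all genes. PDP2 rose by 0.86 and PC, pyruvate carboxylase, by 1.03 on the log2 scale (adjusted p = 0.00756 and 0.0357, edgeR). HIF3A, a hypoxia-inducible factor subunit, rose from a mean of 41.0 to 125 CPM (adjusted p = 0.0258, edgeR). Its level at P3 ran from 44.6 CPM in library 6 to 242 CPM in library 5. LDHB rose from 479 to 794 CPM (log2 0.73, adjusted p = 0.00991, edgeR), although its row is a locus without introns on chromosome 2, so its reads may be shared with another copy of the gene. GYG1 fell by 1.05, ME1 by 1.36 and PYGL, the liver form of glycogen phosphorylase, by 0.43 (adjusted p = 0.00428, 0.00408 and 0.0483, edgeR). From P3 to P28, PDP2 was higher and ME1, PYGM and PGLS were lower, which made 4 of 28, against 16.5% of all genes. PYGM, the muscle form of glycogen phosphorylase, went from 1207 to 778 CPM. The spans of PC, PYGL and PGLS overlap those of other genes, as does that of GPI.

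Other glycolytic enzymes measured included HK3 and GAPDHS. HK3, a hexokinase best known from white blood cells, had means of 125, 131, 117 and 133 CPM at P1, P3, P7 and P28 and passed in no comparison, with an adjusted p of 0.340 or more (edgeR). Its annotated span shares 106445 bases with those of 3 other genes, UIMC1 among them, so its level may be uncertain. GAPDHS, the sperm form of glyceraldehyde phosphate dehydrogenase, had at most 8 counts and was not tested. HIF1A, the oxygen-sensitive factor under which several glycolytic genes are known to be switched on, changed by -0.36 from P1 to P28 with an adjusted p of 0.218 (edgeR). Every P28 library lay below every P1 library in HIF1A, as in 21.9% of all genes tested.

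**Figure D5:**
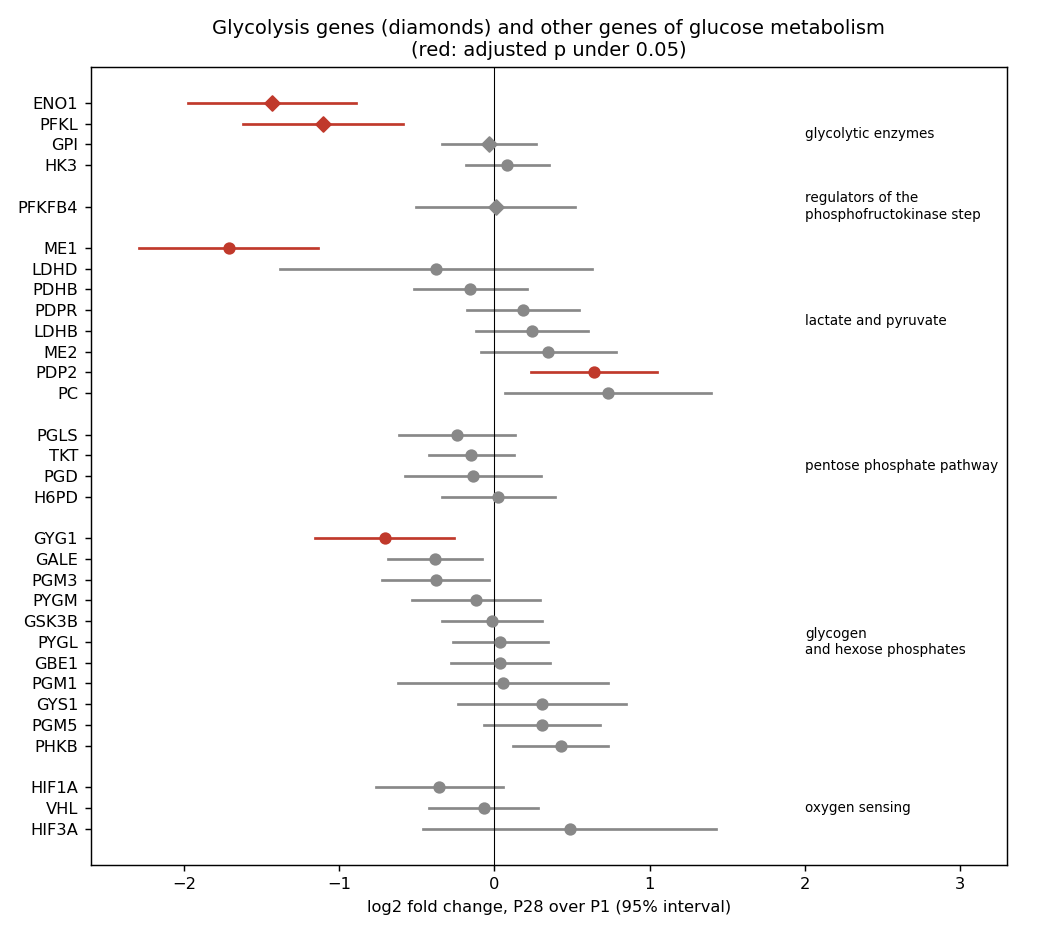
Log2 fold change from P1 to P28 (horizontal axis) with its 95% interval for the 4 genes (diamonds) and 27 of the 28 other tested genes of glucose metabolism and oxygen sensing (circles), grouped by role. Red marks an adjusted p under 0.05 in edgeR. ENO1 (-1.43), PFKL (-1.106), ME1 (-1.71) and GYG1 (-0.71) lie to the left in red and PDP2 (0.64) to the right, with the other genes in gray.

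Markers of the cell types that heart tissue can hold were measured in part, and the members of a list did not all move together. From P1 to P28, 5 of the 23 markers tested passed as higher and 4 as lower, against 15.3% of all genes in either direction (edgeR). Of 10 fibroblast markers 2 were measured, and their summed level was 3636 to 4040 CPM at P1, 1916 to 2816 at P3, 3665 to 4233 at P7 and 972 to 1214 at P28. Nearly all of that sum was FBN1, a matrix protein, with means of 3775, 2418, 3926 and 1070 CPM at the 4 ages. TCF21, a transcription factor of fibroblasts, had means of 41.2, 35.4, 33.1 and 19.8 CPM. Both passed as lower from P1 to P28 (log2 -1.82 and -1.05, adjusted p = 6.05e-05 and 0.000678, edgeR). From P1 to P7 neither passed, although every P7 library was below every P1 library in TCF21. The measured epicardial marker (1 of 5) was at 62.4 to 85.6 CPM at P1, 55.8 to 72.6 at P3, 73.0 to 79.1 at P7 and 37.0 to 44.8 at P28, and it passed as lower from P1 to P28.

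The 7 cardiomyocyte markers summed to 73281 to 83844 CPM at P1, 67638 to 80755 at P3, 62859 to 71029 at P7 and 79997 to 89441 at P28, and the sum hid opposite moves. From P1 to P28, ACTC1, the cardiac actin, fell by 0.60 on the log2 scale (adjusted p = 0.0340, edgeR). CKM, the muscle creatine kinase, rose by 1.544 and MYBPC3, a myosin-binding protein, by 0.57 (adjusted p = 0.00885 and 0.0158, edgeR). TPM1, a tropomyosin, had means of 14542, 11015, 11674 and 10827 CPM at the 4 ages and did not pass from P1 to P28. Of 6 measured leukocyte markers, TYROBP (8.37 to 15.6 CPM) and CD37 (0.896 to 3.34 CPM) passed as higher from P1 to P28. CSF1R had means of 118 and 187 CPM and LAPTM5 of 46.7 and 72.8 CPM at these ages, and neither passed. The sum of that list was mostly CD79A, with means of 628, 575, 432 and 559 CPM, whose span other genes overlap. Of 4 measured endothelial markers, TEK passed as higher (214 to 308 CPM), while TIE1 had means of 112 and 89.3 CPM and ERG of 60.7 and 49.3 CPM and did not pass. Mural markers (2 of 9) were highest in library 5 of P3, at 1185 CPM, and the measured erythroid marker (1 of 11), EPB42, a protein of the red cell membrane, had means of 1.72, 7.03, 4.06 and 1.196 CPM at the 4 ages.

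From P3 to P28, where PFKL passed as lower, several markers passed too. EPB42 fell by 2.55 on the log2 scale (adjusted p = 0.00280, edgeR), PDGFRB, a receptor of mural cells, by 0.98 (adjusted p = 0.0451) and TIE1 by 0.81 (adjusted p = 0.0151). FBN1, TCF21 and the epicardial marker TBX18 also passed as lower (log2 -1.18, -0.84 and -0.65), whereas CKM, TEK, TYROBP and CD37 passed as higher (log2 1.029, 0.83, 0.99 and 1.086). That made 6 lower and 4 higher among the 23 markers tested, against 16.5% of all genes called in either direction. The part of cell makeup in the falls of ENO1 and PFKL, and in the levels of PFKFB4, was not tested.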

How the data were processed

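Total RNA from 12 pig hearts of the cd batch was examined, 3 at each age. The authors deposited whole-number read counts per gene without normalization, with gene identifiers, positions and lengths. The tools named in the submitters' processing notes are STAR 2.7.9a and MultiQC 1.11, and the genome named is Sscrofa10.2. The counting program is not given in the sources used here. Of 4358 symbols matched to RefSeq's Sscrofa11.1 table, 91.7% started or ended within 1000 bases of it, so the positions printed, taken from the count table, appear to follow that build and not Sscrofa10.2. The last line, without counts, was left out (1 line). Columns named an age and the numbers 4 to 6, which are used as library numbers. The circRNA and miRNA tables were not used.

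Counts were analysed in R 4.3.3 with edgeR 4.0.16 (quasi-likelihood test, TMM, all 4 ages in one fit, no covariate, genes with at least 10 counts in at least 3 libraries, Benjamini-Hochberg adjustment over 5526 genes), and passing meant an adjusted p under 0.05. Standard errors and 95% intervals came from the same fit. Correlations used log2 CPM with a prior count of 2. Alternatives used DESeq2 1.42.0, limma 3.58.1, other scalings, filters, samples and thresholds. Plots were drawn with Python 3.11.15 and matplotlib 3.10.9. The test was tried on simulated data with known changes. Replicates were compared, and no pair of libraries was identical or within sampling noise. The 4 genes and the lists were chosen with earlier results of these data known. Named genes are the 4, pathway genes that passed from P1 or between P7 and P28, every measured glycolytic enzyme, and the 5 genes most like each of the 4. PYGM and PGLS were named after their values were seen, as were HIF1A, GARRE1 and the single marker genes. Genes that these rules name but the text does not are not reported here.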

Additional observations from a re-analysis of the deposited data

How the results depend on the processing

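Of 612 values of the 4 genes under alternatives, 549 kept their direction and their side of the threshold, 9 lost a call, 25 gained one and 29 changed sign. All 29 were uncalled values of at most 0.07 on the log2 scale, and the largest became 0.23. The falls of ENO1 and PFKL from P1 to P28 and of PFKL from P3 to P28 were called in all 21 alternatives run, at -1.62 to -1.13, -1.32 to -0.82 and -1.24 to -0.83. The causes of the moves below were not tested. DESeq2 called PFKL from P1 to P7 (-0.99), from P3 to P7 (-0.92) and from P1 to the mean of the later ages (-0.72), and so did no filter on low counts (-0.997, -0.92 and -0.73). From P1 to P7 PFKL was also called by limma voom (-0.95) and with only those ages in the fit (-0.99), as was ENO1 from P7 to P28 (-0.31). The study's cut-offs added ENO1 from P1 to P3 (-0.81) and P3 to P28 (-0.62), PFKL from P1 to P7 (-0.998), from P3 to P7 (-0.93) and from P1 to the later mean (-0.72), and PFKFB4 from P3 to P7 (-0.72). Whether library numbers pair the libraries was not settled. The deviations of same-numbered libraries correlated at -0.186 to 0.331 (median 0.0354), with 5 of 18 pairs over 0.1. Those of differently numbered libraries of different ages correlated at -0.263 to 0.249 (median -0.0176), with 6 of 36 pairs over 0.1. Of the 12 libraries, 6 were nearest their own number. With the number as a replicate block, ENO1 from P1 to P7 was -1.13 with an adjusted p of 0.0578 (edgeR), and no other call of the 4 genes changed.

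Scaling by library size alone moved the median of all genes by 0.133, to 0.125, from P1 to P7 and by -0.133, to -0.120, from P7 to P28, and the share of calls that were lower from 27.0% to 10.5% and from 55.7% to 73.1%, and GPI changed sign, to 0.015 (P1 to P3), 0.090 (P1 to P7), 0.076 (P3 to P7), -0.114 (P7 to P28) and 0.027 (P1 to the later mean). From P3 to P28 GPI was 0.0012 with limma voom and 0.0027 with only those ages, and PFKFB4 from P1 to P28 was -0.00081 without a filter.

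With each library left out in turn, ENO1 ranged from -1.114 to -0.49 from P1 to P3, from -0.53 to -0.024 from P3 to P7 (both uncalled throughout), from -1.33 to -0.83 from P1 to P7, from -0.81 to -0.32 from P3 to P28 (called without library 4 of P1 or of P3) and from -1.32 to -0.82 against the later mean. PFKL ranged from -0.29 to 0.23 from P1 to P3, from -1.22 to -0.71 from P1 to P7 (called without library 5 of P1 or library 4 or 5 of P3), from -1.13 to -0.72 from P3 to P7 (called without library 4 of P1 or of P3) from -0.20 to -0.046 from P7 to P28 (uncalled) and from -0.94 to -0.43 against the later mean (called without library 5 of P1 or of P3). PFKFB4 ranged from 0.091 to 0.71 from P1 to P3, from -0.37 to -0.13 from P1 to P7, from -0.70 to -0.085 from P3 to P28, from 0.17 to 0.34 from P7 to P28, from -0.11 to 0.14 from P1 to P28, from -0.97 to -0.35 from P3 to P7 and from -0.054 to 0.20 against the later mean. GPI ranged from -0.13 to 0.10 from P1 to P3, from -0.13 to 0.056 from P1 to P7, from -0.11 to 0.071 from P1 to P28, from -0.16 to 0.079 from P3 to P7, from -0.14 to 0.094 from P3 to P28, from -0.045 to 0.045 from P7 to P28 and from -0.11 to 0.075 against the later mean. Of the 28 other pathway genes, 0 to 4 were called from P1 to P7, 1 to 6 from P1 to P28, 0 to 2 from P3 to P7, 2 to 7 from P3 to P28, 3 to 9 from P7 to P28 and 0 to 1 against the later mean. DESeq2 called 1 of them from P1 to P7, 3 from P3 to P7 and 1 against the later mean, no filter 2 from P3 to P7 and 1 against the later mean, and only the ages compared 2 from P1 to P7, 6 from P1 to P28 and 2 from P3 to P28. Over all genes tested, counts of 3, 111, 846, 122, 911 and 1040 called from P1 to P3, P1 to P7, P1 to P28, P3 to P7, P3 to P28 and P7 to P28, and of 136 against the later mean, became 1 to 122, 21 to 364, 463 to 1412, 15 to 364, 450 to 1190, 580 to 1681 and 37 to 291 over all alternatives other than the study's cut-offs. With 3 libraries an age, the 95% intervals of ENO1, PFKL and PFKFB4 between 2 ages reached over 0.5 to either side on the log2 scale and those of GPI 0.30, and counting depth limits GAPDHS and, at P7, the precision of PFKFB4.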
